A study of Mus musculus with 23 samples.

Results

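The genes that encode the inhibitors of cyclin-dependent kinases (CDKs) were followed in the livers of mice given 1-methoxy-3-indolylmethyl alcohol (1-MIM-OH). The set comprises Cdkn1a, Cdkn1b, Cdkn1c, Cdkn2a, Cdkn2b, Cdkn2c and Cdkn2d, and it was chosen by gene name. Every probe set that the platform annotation pairs with one of these genes alone was taken, which gave 9 probe sets for 7 genes among 45037 probe sets and 18193 genes. Cdkn1a and Cdkn1b had 2 probe sets each, and the other 5 genes had 1 each. A gene with several probe sets is represented by the one with the highest mean over the 23 arrays, and the values of its other probe set are given too. For Cdkn1a the treated livers decide that choice: in vehicle livers the other probe set had the higher means, 6.92 against 6.83 at 21 d and 6.77 against 6.70 at 90 d, and its fold changes, given below, are the smaller ones.

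All mice were males of the strain hemizygous FVB/N-SULT1A1/2, which carries human sulfotransferase transgenes, and controls carried them as well. 1-MIM-OH, which arises from a glucosinolate of cabbage-family plants, was given by mouth 3 times a week at 26 mg per kg body mass, and vehicle mice received glyceryl trioctanoate alone. Livers were collected 24 h after the last dose. After 10 treatments over 21 d there were 6 vehicle and 5 treated animals, and after 40 treatments over 90 d there were 6 vehicle and 6 treated animals. The submitters left out 1 more array of a treated animal at 21 d for hybridisation artefacts. The labels give an age of 5 weeks for every animal and do not say at which point of the study. Values are log2 signals of Affymetrix Mouse Genome 430 2.0 arrays, 1 animal per array. Spread is given as SD over animals, and fold changes carry the moderated standard error (SE) of a limma fit of 4 group means to all 23 arrays. A gene passed when its p-value was under 0.05 after Benjamini-Hochberg adjustment across 45037 probe sets.

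CDK inhibitors bind the kinases that drive the cell cycle and hold cells out of division. The Cip/Kip members p21 (Cdkn1a), p27 (Cdkn1b) and p57 (Cdkn1c) bind complexes of cyclins with CDKs, whereas the INK4 members p16 (Cdkn2a), p15 (Cdkn2b), p18 (Cdkn2c) and p19 (Cdkn2d) bind CDK4 and CDK6 and keep them from D-type cyclins. Cdkn2a also encodes, in another reading frame, the protein ARF, which holds back the p53 antagonist MDM2. Cdkn1a is the classical target of p53 after DNA damage, and in most hepatocytes of a resting adult liver its transcript is scarce.

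Upstream sequences show what lies before the starts of the 2 genes that passed a test below, Cdkn1a and Cdkn2c. RefSeq promoter windows of the GRCm38.p6 build were matched by symbol for 6 of the 7 genes, with 9 windows of 250 bases upstream of an annotated start. Capitals in the first window mark the best match to the p53 response element consensus, made of a pair of half-sites of 10 bases each with no spacer, with at most 1 mismatch. Capitals in the other windows mark GGGCGG, the GC box that Sp1 family factors bind. Both strands were searched for both motifs, and the marked stretches do not overlap. Each sequence runs 5′ to 3′ on the strand of its gene.
Cdkn1a, upstream start, chr17:29090729-29090978, plus strand: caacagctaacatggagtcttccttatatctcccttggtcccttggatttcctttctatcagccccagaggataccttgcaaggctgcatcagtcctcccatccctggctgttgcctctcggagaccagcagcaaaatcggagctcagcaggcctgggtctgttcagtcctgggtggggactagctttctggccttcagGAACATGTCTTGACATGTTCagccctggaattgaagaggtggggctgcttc
Cdkn1a, downstream start, chr17:29093519-29093768, plus strand: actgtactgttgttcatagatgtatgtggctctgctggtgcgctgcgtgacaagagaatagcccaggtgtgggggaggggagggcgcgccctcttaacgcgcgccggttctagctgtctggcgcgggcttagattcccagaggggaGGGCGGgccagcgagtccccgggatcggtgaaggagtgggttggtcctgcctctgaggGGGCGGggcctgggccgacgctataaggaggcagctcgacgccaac
Cdkn2c, upstream start, chr4:109666757-109667006, minus strand: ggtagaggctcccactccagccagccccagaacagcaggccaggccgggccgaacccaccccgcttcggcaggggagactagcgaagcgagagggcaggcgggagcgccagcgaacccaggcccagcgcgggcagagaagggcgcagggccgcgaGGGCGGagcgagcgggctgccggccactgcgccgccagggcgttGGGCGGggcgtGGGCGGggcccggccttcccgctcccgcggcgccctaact
The upstream Cdkn1a window holds a 20-base stretch with 1 mismatch, at positions 29090928 to 29090947 of chromosome 17, which is 51 to 32 bases before the upstream start. That start lies 2790 bases before the downstream one. The downstream Cdkn1a window holds 2 GC boxes and the upstream Cdkn2c window holds 3. Cdkn2c also has a downstream start, whose window (chr4:109665373-109665622, minus strand) is not printed and holds 0 GC boxes. Of all 32817 promoter windows of this length, 0.0762% held a p53-like stretch of this kind and 32.7% held GGGCGG. Among the 9 windows of the inhibitor genes, 1 held the p53-like stretch and 5 held a GC box. These are matches of letters and carry no measurement of binding.

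Cdkn1a rose after both treatment periods. Its product p21 blocks CDKs and, in complex with PCNA, DNA replication. At 21 d the 6 vehicle livers ran from 6.41 to 7.17 with a median of 6.84 (mean 6.83 ± 0.34, SD, n = 6). The 5 treated livers had 8.98, 10.26, 9.59, 9.35 and 8.95 (mean 9.43 ± 0.54, SD, n = 5). Every treated liver lay above every vehicle liver. The log2 fold change was 2.60 ± 0.36 (SE), or 6.06-fold with a 95% confidence interval of 3.64 to 10.1, with an adjusted p of 0.00135 in the limma fit. A two-sided exact permutation test of the group means gave p = 0.00216, the smallest value that this design allows.

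At 90 d the 6 vehicle livers ran from 6.41 to 7.27 for Cdkn1a, with a median of 6.66 (mean 6.70 ± 0.31, SD, n = 6). The treated livers ran from 9.01 to 11.79 with a median of 10.68 (mean 10.37 ± 1.08, SD, n = 6), again with no overlap. Replicates 3 and 6 of the treated group were the lowest, at 9.01 and 9.15, and the other 4 lay between 10.67 and 11.79. The log2 fold change was 3.67 ± 0.34 (SE), or 12.7-fold with an interval of 7.81 to 20.7, with an adjusted p of 2.13e-06 in limma. The exact permutation p was again 0.00216. Set against the mean of the vehicle livers, single treated animals stood 4.36-fold to 10.8-fold higher at 21 d and 4.96-fold to 34.1-fold higher at 90 d.

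The other Cdkn1a probe set, 1421679_a_at, gave the same direction with smaller differences. Its treated livers had 8.36, 10.23, 8.72, 8.33 and 7.82 at 21 d, against 6.57 to 7.17 in vehicle livers, a log2 fold change of 1.78 ± 0.38 (limma adjusted p = 0.0283). At 90 d its treated livers ran from 8.31 to 10.75 with a median of 10.23, against 6.59 to 6.93 in vehicle livers, a log2 fold change of 3.03 ± 0.36 (limma adjusted p = 9.66e-05). The groups did not overlap at either time. The same animals stood at the ends on both probe sets: replicate 2 was highest among the treated livers at 21 d, replicate 4 was highest at 90 d, and replicates 3 and 6 were lowest at 90 d.

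**Figure D1:**
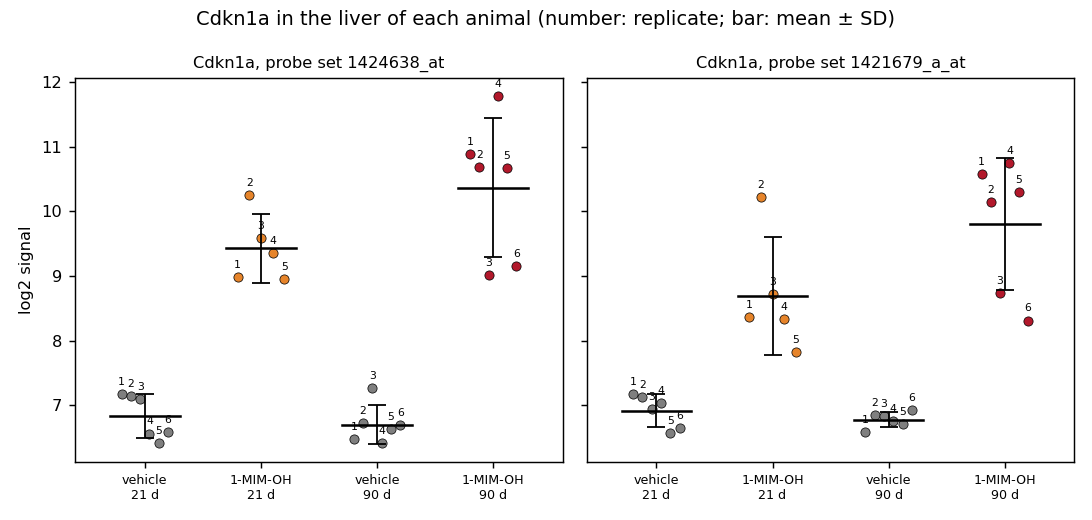
Log2 signal of both Cdkn1a probe sets (y axis) in each liver by group (x axis); each point is 1 animal with its replicate number, and bars are the mean ± SD. On probe set 1424638_at the vehicle livers lie between 6.41 and 7.27 and the treated livers between 8.95 and 11.79, with replicates 3 and 6 at 90 d below the other 4.

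The order of the 4 group means of Cdkn1a was vehicle at 90 d, vehicle at 21 d, treated at 21 d and treated at 90 d. The vehicle groups differed by -0.13 on the log2 scale (adjusted p = 0.985 in limma), within the spread between animals. Treated livers were higher by 0.94 ± 0.36 at 90 d than at 21 d, which did not pass (adjusted p = 0.264), and 4 of the 6 livers at 90 d lay above all 5 at 21 d. The treatment effect was larger at 90 d by 1.07 ± 0.49 (95% interval 0.05 to 2.09), a difference that did not pass either (unadjusted p = 0.0403, adjusted p = 0.509 in limma). On the other probe set this difference was 1.25, with an adjusted p of 0.492.

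A control for RNA and labelling quality differed between the groups at 21 d, and it is given here beside the results that it moves with. The control probe sets for Gapdh compare signals near both ends of one transcript, and a larger 3′ minus 5′ difference marks shorter RNA or labelled product. At 21 d the vehicle livers had a difference of 0.33 ± 0.13 (SD, n = 6) and the treated livers 1.00 ± 0.51 (SD, n = 5), an exact permutation p of 0.0216, and the beta-actin controls differed by 0.58 (exact p = 0.0303). At 90 d the Gapdh means differed by 0.03 (exact p = 0.909). On 5 arrays the difference was above 0.9: treated replicates 1, 3, 4 and 5 at 21 d and treated replicate 6 at 90 d. These 5 arrays had Cdkn1a signals of 8.95 to 9.59, while the treated livers at 21 d and 90 d with the highest Cdkn1a, at 10.26 and 11.79, had Gapdh differences of 0.14 and 0.60. Treated replicate 3 at 90 d had a Gapdh difference of 0.21 and the lowest Cdkn1a signal of its group, 9.01, within the range of these 5 arrays. When the Gapdh difference entered the fit as a covariate, the Cdkn1a log2 fold change was 3.06 at 21 d (limma adjusted p = 0.00138) and 3.69 at 90 d (6.73e-07). Without the 5 arrays it was 3.43 at 21 d, where 1 treated array remained, and 3.91 at 90 d, with adjusted p-values of 0.00878 and 1.74e-06. The difference of the Cdkn1a effects between the times, 1.07 with all arrays, was 0.63 with the covariate (adjusted p = 1.00) and 0.48 without the 5 arrays (adjusted p = 0.963).

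Of the 7 inhibitor genes, 1 (Cdkn1a) passed at 21 d and 2 (Cdkn1a and Cdkn2c) passed at 90 d, each of them higher in treated livers. Among all 18193 genes, 1.17% passed at 21 d, with 0.577% higher in treated livers, and 0.748% passed at 90 d, with 0.5% higher. The treated and vehicle ranges did not overlap for 1 of the 7 genes at 21 d and for 2 at 90 d, against 2.81% and 1.35% of all genes. The median log2 fold change over the 7 genes was 0.05 at 21 d and 0.16 at 90 d, beside -0.02 and 0.02 over all genes. None of the 7 genes passed as lower.

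**Figure D2:**
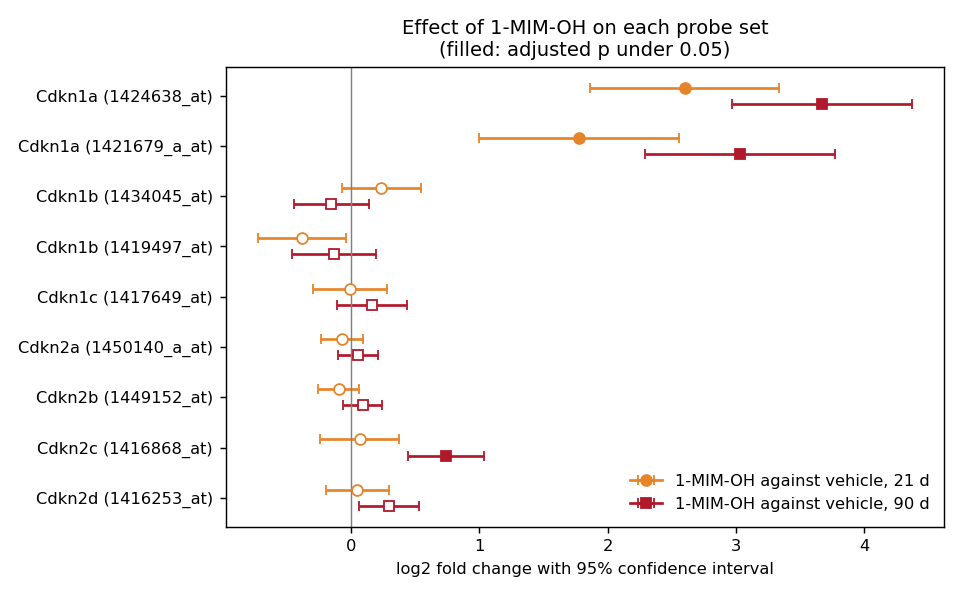
Log2 fold change of treated against vehicle livers (x axis) with its 95% confidence interval for the 9 probe sets (y axis), at 21 d (circles, 5 against 6 animals) and at 90 d (squares, 6 against 6 animals); filled symbols passed at an adjusted p under 0.05. Both Cdkn1a probe sets passed at both times, Cdkn2c did so at 90 d with 0.74, and the other symbols are open. Among the open symbols, the intervals of Cdkn2d at 90 d (0.06 to 0.53) and of Cdkn1b probe set 1419497_at at 21 d (-0.73 to -0.04) exclude 0.

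Cdkn2c rose at 90 d and did not pass at 21 d. Its product p18 keeps CDK4 and CDK6 from binding D-type cyclins. At 90 d the vehicle livers ran from 7.34 to 7.68 with a median of 7.50 (mean 7.51 ± 0.12, SD, n = 6), and the treated livers had 8.60, 8.13, 8.07, 8.18, 8.48 and 8.02 (mean 8.25 ± 0.24, SD, n = 6). The lowest treated liver lay above the highest vehicle liver. The log2 fold change was 0.74 ± 0.14 (SE), or 1.67-fold with a 95% interval of 1.36 to 2.04, with an adjusted p of 0.0128 in limma. Under the 33 other settings tried, the adjusted p of this rise was between 0.000365 and 0.0461.

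At 21 d the vehicle livers had 8.48, 8.43, 8.29, 8.01, 8.10 and 8.23 for Cdkn2c, and the treated livers 8.32, 9.09, 8.17, 7.95 and 8.09. These ranges overlapped, and the log2 fold change was 0.07 ± 0.15 (limma adjusted p = 0.887). Treated replicate 2, at 9.09, stood above all other livers of the study for this gene and was the treated 21 d liver with the low Gapdh difference of 0.14. Without the 5 arrays with Gapdh differences over 0.9, this was the sole treated liver at 21 d, and the log2 fold change was 0.83 (adjusted p = 0.0391). Without replicate 2 the value was -0.12 (adjusted p = 0.593).

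The Cdkn2c signal of vehicle livers was lower at 90 d than at 21 d, by 0.75 ± 0.14 on the log2 scale, with no overlap between the groups. In the limma fit its unadjusted p was 2.27e-05 and its adjusted p 0.0787, so it did not pass. Among all genes, 0.808% had vehicle groups that did not overlap, 0.011% passed in this comparison, and 6.43% had an unadjusted p under 0.05. Treated livers at 90 d differed from treated livers at 21 d by -0.08 ± 0.15 (adjusted p = 0.862). The vehicle livers at 90 d were the one group of low Cdkn2c signal, and both the comparison of treatment at 90 d and that of the vehicle groups use these 6 livers. The treatment effect at 90 d exceeded that at 21 d by 0.67 ± 0.21 (unadjusted p = 0.00339, adjusted p = 0.492 in limma). All 7 measured Kupffer cell markers were also at lower values in vehicle livers at 90 d than at 21 d, with a median of -0.31 on the log2 scale and none passing, and their part in the Cdkn2c values was not tested. Without treated replicate 2 of 21 d, the difference of the Cdkn2c effects was 0.86 with an adjusted p of 0.0333, and the vehicle difference had an adjusted p of 0.00231.

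**Figure D3:**
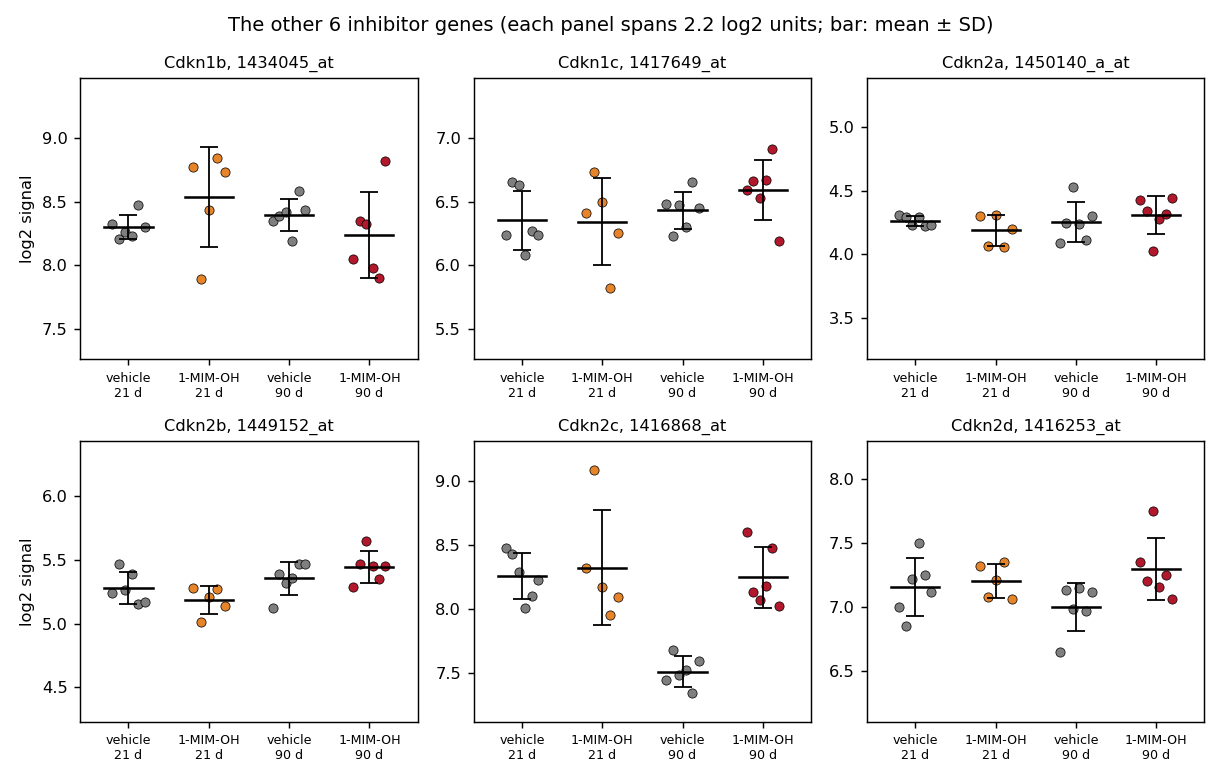
Log2 signal (y axis) of the other 6 inhibitor genes in each liver by group (x axis); each point is 1 animal, bars are the mean ± SD, and each panel spans the same height of 2.2 log2 units. The 6 vehicle livers at 90 d lie below all other livers for Cdkn2c, at 7.34 to 7.68, and the treated and vehicle ranges overlap at both times for the other 5 genes.

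Cdkn1b, whose product p27 restrains cyclin E and CDK2 in resting cells, did not pass at either time. On its brighter probe set, 1434045_at, treated livers had 8.77, 7.89, 8.43, 8.84 and 8.73 at 21 d against 8.21 to 8.47 in vehicle livers, a log2 fold change of 0.23 ± 0.15 (limma adjusted p = 0.480). At 90 d treated livers had 8.05, 8.35, 8.32, 7.98, 7.90 and 8.82 against 8.19 to 8.58, a log2 fold change of -0.16 ± 0.14 (adjusted p = 0.762). The treated livers spread further than the vehicle livers at both times, with SDs of 0.39 and 0.34 against 0.09 and 0.13. On the dimmer probe set, 1419497_at, the log2 fold change at 21 d was -0.38 ± 0.17 (limma unadjusted p = 0.0315, adjusted p = 0.260). At 90 d it was -0.14 ± 0.16 (adjusted p = 0.825), so the probe sets had opposite signs at 21 d.

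The Cdkn1b signal of 1434045_at moved with the Gapdh control. The 5 arrays with a Gapdh difference over 0.9 had 8.43 to 8.84 with a median of 8.77, and the other 18 arrays had 7.89 to 8.58 with a median of 8.31. On the dimmer probe set the same arrays had 4.28 to 5.46 against 4.86 to 5.68. When the Gapdh difference entered the fit as a covariate, the log2 fold change of 1434045_at at 21 d was -0.18 (limma adjusted p = 0.782). Without treated replicate 2 of 21 d, treated livers at 90 d were lower than those at 21 d by 0.46 on the log2 scale with an adjusted p of 0.0485, against 0.30 and 0.391 with all arrays. That comparison gave 0.00 with the Gapdh covariate.

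**Figure D4:**
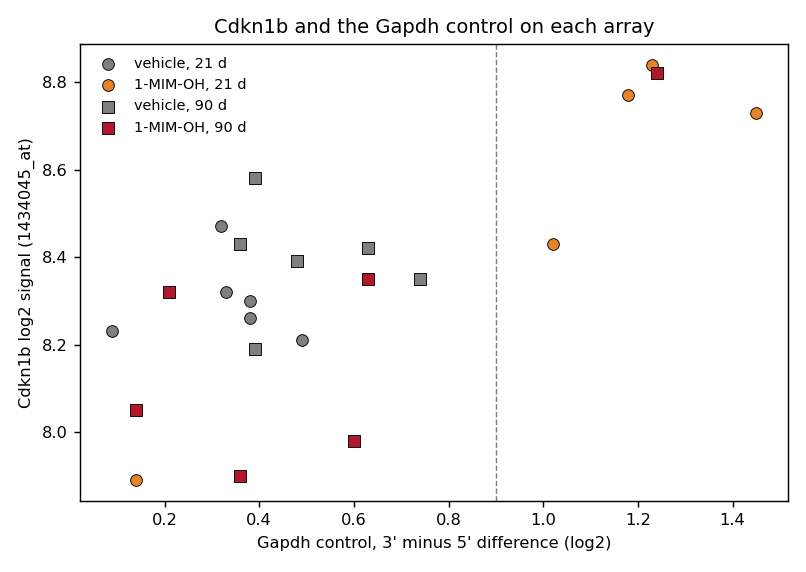
Log2 signal of Cdkn1b probe set 1434045_at (y axis) against the 3′ minus 5′ log2 difference of the Gapdh control (x axis), with 1 point per array, circles for 21 d and squares for 90 d; the dashed line marks 0.9. The 5 arrays to the right of the line, 4 of them treated livers at 21 d, have Cdkn1b signals of 8.43 to 8.84, and the 18 others have 7.89 to 8.58.

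Cdkn1c, the imprinted gene for p57, had overlapping groups throughout. Vehicle livers ran from 6.08 to 6.65 at 21 d and treated livers had 6.41, 6.73, 6.50, 5.82 and 6.25, a log2 fold change of -0.01 ± 0.14 (limma adjusted p = 0.985). At 90 d vehicle livers ran from 6.23 to 6.65 and treated livers from 6.19 to 6.91, with a log2 fold change of 0.16 ± 0.13 (adjusted p = 0.730). The 95% intervals were -0.29 to 0.28 at 21 d and -0.11 to 0.43 at 90 d.

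Cdkn2a and Cdkn2b, neighbours on chromosome 4 whose products p16 and p15 are associated with senescence, had low signals and did not pass. The array medians lay between 5.53 and 5.61. Cdkn2a ran from 4.03 to 4.53 over all 23 livers, and its log2 fold changes were -0.07 ± 0.08 at 21 d and 0.05 ± 0.08 at 90 d. Cdkn2b had 5.01 to 5.28 in treated and 5.15 to 5.47 in vehicle livers at 21 d, a log2 fold change of -0.10 ± 0.08. At 90 d it ran from 5.29 to 5.65 in treated and from 5.12 to 5.47 in vehicle livers, a log2 fold change of 0.09 ± 0.07. All 6 treated livers at 90 d lay above all 5 at 21 d for Cdkn2b, by a mean of 0.26 ± 0.08 (unadjusted p = 0.00264, adjusted p = 0.171 in limma). Of all genes, 0.616% had treated groups without overlap, 0.0934% passed in that comparison and 13.3% had an unadjusted p under 0.05.

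Cdkn2d, which encodes the INK4 protein p19, ran from 7.06 to 7.35 in treated and from 6.85 to 7.50 in vehicle livers at 21 d, a log2 fold change of 0.05 ± 0.12 (limma adjusted p = 0.901). At 90 d treated livers ran from 7.06 to 7.75 with a median of 7.22 and vehicle livers from 6.65 to 7.15 with a median of 7.05. The log2 fold change was 0.30 ± 0.11 (95% interval 0.06 to 0.53), with an unadjusted p of 0.0151 and an adjusted p of 0.336 in limma. Of the 6 treated livers at 90 d, 5 lay above all vehicle livers. At an unadjusted p under 0.05, Cdkn2d joined Cdkn1a and Cdkn2c among the 7 genes at 90 d, and 12.1% of all genes met that threshold, 16.6% at 21 d. For the difference of the effects between the times, none of the 7 genes and 0% of all genes passed, while Cdkn1a and Cdkn2c had an unadjusted p under 0.05, as did 8.64% of all genes.

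In the reported fit, the kinases, cyclins and other partners of the inhibitors passed about as often as genes in general at 21 d and 90 d. Of 127 genes in 10 lists of the cell cycle network, 2 passed at 21 d and 1 at 90 d (1.57% and 0.787%, against 1.17% and 0.748% of all genes). At an unadjusted limma p under 0.05 the counts were 19 and 25 of the 127. That is a smaller share at 21 d and a larger one at 90 d than among all genes (16.6% and 12.1%). Without treated replicate 2 of 21 d these counts of passing genes were 11 and 6, or 8.66% and 4.72%, and 5.47% and 1.29% of all genes passed in that fit. Over all fits that left out 1 array they ran from 1 to 11 at 21 d and from 0 to 6 at 90 d, while the share of all genes ran from 0.407% to 5.47% and from 0.368% to 1.30%. With the Gapdh covariate 7.09% of the 127 genes passed at 90 d, against 1.71% of all genes. With only the groups compared none of them passed at 90 d, against 0.506% of all genes, so the share at 90 d depended on the setting. Rnf123, a ubiquitin ligase subunit that marks p27 for degradation, rose at 21 d by 0.35 ± 0.07 on the log2 scale (limma adjusted p = 0.0163), from 7.73 ± 0.08 to 8.08 ± 0.09 (SD) with no overlap. When the Gapdh difference entered the fit as a covariate the Rnf123 value was 0.24 with an adjusted p of 0.301. Id1, an inhibitor of basic helix-loop-helix factors that represses Cdkn2a, fell by 1.17 ± 0.25 at 21 d (adjusted p = 0.0286), from 9.88 ± 0.47 to 8.71 ± 0.49, with some overlap. The Id1 call ended when any of 6 arrays of 21 d was left out (treated replicates 1 and 3, vehicle replicates 2, 3, 4 and 5), with a highest adjusted p of 0.0696. It also ended with only the groups compared, and it remained with the Gapdh covariate.

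Among the G1 cyclins and CDKs that the INK4 proteins act on, 0 of 8 passed at either time. Of all genes 1.17% passed at 21 d and 0.748% at 90 d. At these shares, 0 calls in lists of 4 to 22 genes do not set a list apart from genes in general. Ccne2, a cyclin E gene, had log2 fold changes of 0.34 (limma adjusted p = 0.0982) at 21 d and 0.40 (0.0766) at 90 d, and Cdk6, a direct partner of the INK4 proteins, had 0.29 (0.0557) at 90 d. Of 4 measured S to M phase cyclin and CDK1 genes, 0 passed, and their median was 0.04 at 21 d and 0.38 at 90 d. Ccnb2, a mitotic cyclin, had 0.77 ± 0.21 at 90 d (adjusted p = 0.108) and Cdk1, the mitotic kinase, 0.40 ± 0.11 (adjusted p = 0.112). Of 22 E2F and DREAM targets, the replication and mitosis genes that are silenced when CDKs are inhibited, 0 passed at either time. Their median log2 fold change was 0.00 at 21 d and 0.18 at 90 d, beside -0.02 and 0.02 for all genes, and 20 of the 22 had a positive value at 90 d. Mcm6 (0.79) and Mcm5 (0.63), subunits of the replicative helicase, had the largest values of that list at 90 d. At an unadjusted p under 0.05, 10 of the 22 targets were higher and 0 lower at 90 d, where 7.83% of all genes were higher, and none met this threshold at 21 d. Without the 5 arrays with Gapdh differences over 0.9, 11 of the 127 genes (8.66%) passed at 90 d, as did 2.37% of all genes in that fit, namely Ccnb2, Ccne2, Cdc6, Cdk1, Cdt1, Ezh2, Il6, Mcm6, Mmp12, Phlda2 and Rrm1.

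The remaining lists gave few calls, as lists of this size can where 1.17% of all genes passed at 21 d and 0.748% at 90 d. No gene passed at either time among 18 pocket protein, E2F and DREAM genes or 8 kinases, cyclins and phosphatases that switch CDKs on and off. None of 16 transcription factors that act on Cdkn1a or Cdkn1b passed, where Myc had the largest change at 21 d (0.47, limma adjusted p = 0.391); the gene for p53 itself was not analysed here. None of 15 senescence-associated genes passed, and Mmp12, a macrophage elastase gene, had the largest changes of that list, 0.84 at 21 d (adjusted p = 0.129) and 1.07 at 90 d (adjusted p = 0.0759). Of these 15 genes, 7 had a positive value at 21 d and 14 at 90 d. Their medians were -0.04 and 0.15, beside -0.02 and 0.02 over all genes. At an unadjusted limma p under 0.05, 3 were higher and 0 lower at 90 d, where 7.83% of all genes were higher. Among 12 repressors of the Cdkn2a and Cdkn2b locus, Id1 was the one gene to pass, and Ezh2, the methyltransferase of Polycomb complex PRC2, had 0.30 at 90 d (adjusted p = 0.228). Of 11 ubiquitin ligase subunits that act on p21 and p27, Rnf123 alone passed. In the imprinted network around Cdkn1c, 1 of 13 genes passed, Slc22a18 at 90 d.

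Genes next to the inhibitors on the chromosomes were set beside them. Of 36 neighbours, up to 3 on each side of an inhibitor gene, 0 passed at 21 d and 2 at 90 d, against 1.17% and 0.748% of all genes. Of the 36, 8 at 21 d and 5 at 90 d had an unadjusted p under 0.05, against 16.6% and 12.1% of all genes. Srsf3, a splicing factor gene next to Cdkn1a, was lower in treated than in vehicle livers by 0.66 ± 0.14 at 90 d (limma adjusted p = 0.0294). Vehicle livers had 10.89 ± 0.21 and treated livers 10.24 ± 0.35 (SD), with overlap. At 21 d the means were 10.385 in vehicle and 10.41 in treated livers. On all 6 probe sets the vehicle mean was higher and the treated mean lower at 90 d than at 21 d. All 6 Srsf3 probe sets had negative values at 90 d and positive values at 21 d, and 1 of them passed. The Srsf3 call ended in 8 of the fits that left out 1 array (treated replicates 1, 2, 4 and 5 and vehicle replicates 3, 4, 5 and 6 of 90 d), with a highest adjusted p of 0.0979 without treated replicate 2. Slc22a18, an imprinted transporter gene next to Cdkn1c, rose by 0.36 ± 0.08 at 90 d (adjusted p = 0.0408), from 10.29 ± 0.10 to 10.66 ± 0.19 without overlap, and had 0.34 ± 0.08 at 21 d (adjusted p = 0.0531). Its other probe set had -0.08 at 21 d (adjusted p = 0.827), the opposite sign, and 0.29 at 90 d (adjusted p = 0.376) with overlap. The Slc22a18 call ended in 12 of the fits that left out 1 array (treated replicates 2, 4, 5 and 6 and vehicle replicates 1, 3, 4, 5 and 6 of 90 d, vehicle replicates 1, 2 and 5 of 21 d), with a highest adjusted p of 0.124. The other 5 neighbours of Cdkn1a had log2 fold changes of -0.11 to 0.20 at 21 d and -0.005 to 0.07 at 90 d, and none passed.

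Genes whose signal most resembled that of Cdkn1a were ranked by Pearson's correlation of log2 values over the 23 arrays, among 13703 genes with a mean of at least 5. These arrays share the treatment and the differences in the Gapdh control, so the coefficients are descriptions. The highest were Phlda3 (r = 0.98), a p53 target that restrains AKT, Dglucy (0.97), Aaas (0.95), Aen (0.94), a p53-induced nuclease, Cplane1 (0.94), Eif2d (0.93), Ccng1 (0.93), the p53 target cyclin G1, and Notch1 (0.92). The lowest were the fragile site genes Wwox (-0.97) and Fhit (-0.94), followed by Steap2 (-0.92), Fras1 (-0.90) and Pard3b (-0.90). Phlda3 had 7.81, 8.25, 7.88, 7.78 and 7.36 in treated livers at 21 d and 9.20, 8.71, 7.72, 8.99, 8.59 and 7.69 at 90 d, against 6.53 to 6.71 in all vehicle livers. As Phlda3 was picked for its likeness to Cdkn1a on these arrays, its order of animals and its direction were fixed by that choice. Its log2 fold changes were 1.17 at 21 d and 1.84 at 90 d.

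After each group's mean was taken off, the genes most like Cdkn1a among animals of the same group were Cox6b2 (r = 0.87), Phlda3 (0.87), Sema3f (0.83), P2ry2 (0.82) and Mbl2 (0.78). Wwox had -0.86 and Fhit -0.80 on this scale. Among the inhibitor genes the coefficient with Cdkn1a within groups was 0.52 for Cdkn2c, 0.50 for Cdkn1c, 0.24 for Cdkn2a, -0.28 for Cdkn2b, -0.34 for Cdkn2d and -0.66 for Cdkn1b. Over all 23 arrays it was 0.55 for Cdkn2c and -0.24 for Cdkn1b. Deviations were not scaled by group, so groups with more spread weigh more in the coefficients within groups. The SD of Cdkn1a was 0.54 and 1.08 in treated livers at 21 d and 90 d, against 0.34 and 0.31 in vehicle livers. The Cdkn1b signal also moved with the Gapdh control, whose part in its coefficient was not tested.

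**Figure D5:**
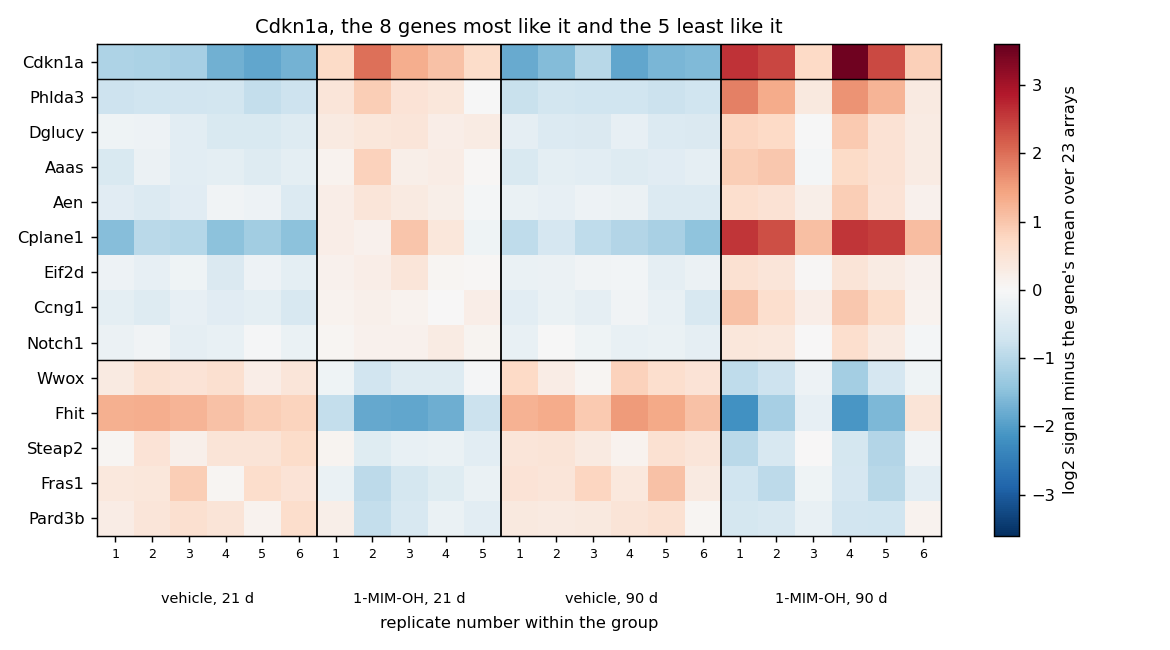
Log2 signal minus the gene's mean over the 23 arrays (colour) for Cdkn1a (top), the 8 genes most like it and the 5 least like it (rows), on each array (columns, by group and replicate). In the treated livers at 90 d, replicates 3 and 6 are paler than the other 4 for Cdkn1a, at 9.01 and 9.15 against 10.67 to 11.79, and for most other rows. The other rows were picked for their correlation with Cdkn1a on these arrays, so the shared pattern follows from that choice.

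The p53-like stretch in the Cdkn1a window was rare, and few genes that share it could be measured. Windows of 25 genes held one, of which 11 were measured, among them Cdkn1a, for whose window the motif is shown. Of the other 10, Ccng1 and Bco1 rose at both times, and 0.0879% of all genes did so. Ccng1 had log2 fold changes of 0.54 ± 0.12 at 21 d (limma adjusted p = 0.0385) and 0.93 ± 0.12 at 90 d (0.000207). Its call at 21 d ended in 10 of the fits that left out 1 array (treated replicates 1, 3, 4 and 5 and each of the 6 vehicle replicates of 21 d), with a highest adjusted p of 0.0838. Bco1, which encodes a beta-carotene oxygenase, had 0.41 ± 0.09 (adjusted p = 0.0315) and 0.48 ± 0.08 (0.00755). The other 8 had values of -0.09 to 0.15 at 21 d and -0.01 to 0.30 at 90 d, among them Rps27l, known as a p53 target and named after its values were seen, with 0.15 and 0.18.

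Each value stands for whole liver tissue, in which fewer cells with a transcript and less RNA per cell cannot be told apart. The hepatocyte markers Alb, Apoa1 and Ttr lay between 15.01 and 15.32 on all arrays, and Tat, the dimmest of 6 measured, between 11.86 and 12.95. Alb, Apoa1 and Ttr were close to the highest value of the series, 15.41, so their narrow range does not show a constant share of hepatocytes. Tat had log2 fold changes of -0.29 at 21 d (limma unadjusted p = 0.0358, adjusted p = 0.274) and -0.35 at 90 d (unadjusted p = 0.00934, adjusted p = 0.278), without overlap at 90 d, and none of the 6 markers had a positive value at 90 d, where their median was -0.03. Of 9 marker lists for liver cell types, none had a gene that passed at either time. Kupffer cell markers had a median log2 fold change of -0.44 at 21 d and 0.36 at 90 d. Of the 7 measured markers, 0 were positive at 21 d and all 7 at 90 d. The list means of single livers overlapped between treated (8.42 to 11.46 at 21 d, 8.71 to 10.48 at 90 d) and vehicle groups (8.85 to 11.02, 8.65 to 10.16). Neutrophil markers had medians of 0.17 and 0.57, with 4 of 4 positive at both times. Treated replicate 2 of 21 d, the liver with the highest Cdkn2c signal of the study, stood apart in both lists. Its Kupffer cell list mean was 11.46, against 8.42 to 8.93 in the other 4 treated livers of 21 d, and its neutrophil list mean was 8.78, against 5.42 to 5.97, both the highest of the 23 arrays. The part of these markers in the Cdkn1a and Cdkn2c values was not tested.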

How the data were processed

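Per the labels' protocols, label synthesis from liver RNA started at the 3′ end (in vitro transcription), and each animal had 1 array. The authors deposited log2 values; Partek and RMA are named in the submitters' processing notes, with versions and settings not given in the sources used here. RMA brings arrays to a common distribution, so a shift shared by all genes would not show. The log2 base was inferred from the value range, 2.23 to 15.41. Of 45101 probe sets, 64 controls were left out and 45037 tested; 34945 are paired with 1 gene and 932 with several in the platform annotation, and the others have no gene in the table used here. No value marks the background of an array, and the number of arrays limits the precision.

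The 4 group means were fitted to all 23 arrays (19 residual degrees of freedom) in limma 3.58.1 (lmFit, then eBayes; R 4.3.3); tables used Python 3.11.15. The fit was tested on simulated data. Exact permutation tests were 2-sided. The alternatives were quantile normalization, median centring, a minimum mean log2 signal of 6, a gene's value as the mean of its probe sets, only the groups compared, trend with robust eBayes, array weights, the replicate number as a block, the Gapdh difference as a covariate, omission of the 5 arrays over 0.9, and omission of each array in turn. The named genes were the 7 members, from each list up to 4 passing genes or the 2 with the largest changes, 8 genes most and 5 least like Cdkn1a, 5 most like it within groups, and 3 neighbours on each side. Genes with a p53-like window were named because they hold it. The members, lists and alternatives were chosen with earlier results of these data known. Replicate numbers did not pair the animals: the correlation of deviations of same-numbered arrays was between -0.358 and -0.139 for all 11 pairs.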

Additional observations from a re-analysis of the deposited data

Results flagged for a closer look

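In 44 groups of animals, a value was looked for that stood apart from the rest of its group by Dixon's test, which chance alone meets in about 1 in 20 groups, and 3 values did. Vehicle replicate 3 at 90 d had a Cdkn1a signal of 7.27 on probe set 1424638_at, above the next vehicle liver at 6.72. It lay below every treated liver. Vehicle replicate 1 at 90 d had a Cdkn2d signal of 6.65, below the next vehicle liver at 6.97. Treated replicate 2 at 21 d had a beta-actin 3′ minus 5′ difference of 1.51, below 2.44 in the nearest of the other treated livers, and it also had the highest Cdkn1a and Cdkn2c and the lowest Cdkn1b signal (1434045_at) of the 5 treated livers at 21 d. Its mean signals of Kupffer cell markers (11.46) and neutrophil markers (8.78) were the highest of the 23 arrays, and their part in these values was not tested.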

How the results depend on the processing

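Cdkn1a passed under all settings tried, with a log2 fold change of 2.19 to 3.43 at 21 d and 3.35 to 3.94 at 90 d, and Cdkn2c passed at 90 d under all. With the replicate number as a block, which does not pair the animals (block correlation -0.0743), Cdkn1a and Cdkn2c remained the inhibitor genes that passed, and the context lists had 0 passing genes at 90 d instead of 1. In that fit 0.484% of all genes passed at 90 d. The count of inhibitor genes moved as follows. At 21 d it was 2 without the arrays over 0.9. For treated livers at 90 d against 21 d, and for the difference between the effects, it ran from 0 to 1 when single arrays were left out, with 1 without treated replicate 2 of 21 d. For vehicle livers at 90 d against 21 d it ran from 0 to 1 when single arrays were left out, and it was 1 (Cdkn2c) with the mean of all probe sets, with only the groups compared, with array weights and without the arrays over 0.9. The count of context genes at 21 d was 2 in the reported fit. It was 4 of 95 genes (4.21%) with the minimum mean of 6, where 4.24% of all genes passed. Only the groups compared gave 1 (0.787% against 0.605% of all genes). Array weights gave 7 (5.51% against 3.75%) and the Gapdh covariate 1 (0.787% against 0.401%). When single arrays were left out the count ran from 1 to 11, with 0.407% to 5.47% of all genes. At 90 d the count was 1 in the reported fit. It was 0 with median centring (0.605% of all genes) and 0 with only the groups compared (0.506%). The minimum mean of 6 gave 2 of 95 genes (2.11% against 1.60% of all genes). The mean of all probe sets gave 2 (1.57% against 1.18%), as did trend and robust eBayes (1.57% against 0.715%). Array weights gave 7 (5.51% against 1.62%) and the Gapdh covariate 9 (7.09% against 1.71%). Omission of the arrays over 0.9 gave 11 (8.66% against 2.37%). When single arrays were left out the count ran from 0 to 6, with 0.368% to 1.30% of all genes. The causes of these moves were not tested. Of 212 single gene results followed, 15 lost a call and 25 gained one under at least 1 of 33 settings. With a call in the reported fit or in the other setting, 0 changed sign. Without a call in either, 71 changed sign under at least 1 setting. Omission of the arrays over 0.9 left 1 treated array at 21 d, whose group's spread is assumed equal to that of the others.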
